A study of Mus musculus with 27 samples.

Results

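The Hox genes encode homeodomain transcription factors and lie in 4 clusters. All protein-coding genes of the mouse HoxA, HoxB, HoxC and HoxD clusters were examined, chosen by their symbols in the GENCODE vM21 annotation. They number 39 of the 22524 genes counted, with 11 in HoxA, 10 in HoxB, 9 in HoxC and 9 in HoxD. No expression value entered the choice. RNA had been sequenced from intestinal organoids, a cell line and fibroblasts to ask how far the microbiota of the donor mouse, a TNF stimulus and the culture itself shape the organoids. Organoid cultures were grown from crypts of the distal jejunum of 9 male C57BL/6J mice aged 8 to 12 weeks, with 3 cohoused littermates from each of 3 facilities, of which SR and SE were SPF and GF was germ-free. Each of these cultures, and each of 3 samples of m-ICc12 cells, gave 1 library labelled untreated and 1 labelled as given TNF (5 ng/mL, 8 hr). m-ICc12 is an immortalised mouse line used as a model of the small intestinal epithelium. Mouse embryonic fibroblasts (MEFs) gave 3 libraries, all labelled untreated. The sources give no separate derivation for the 3 samples of m-ICc12 cells or of MEFs, so p-values that rest on them measure the spread between these samples, which may be technical.

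In each Hox cluster the genes are numbered by their order along the chromosome, and genes with the same number in different clusters are paralogs. Low-numbered genes are switched on earlier and further towards the head of the embryo, and high-numbered genes later and further towards the tail and the tips of the limbs, so the highest number expressed in a cell is a record of where along the body it came from. Cells in culture tend to keep this record. In the gut, Hox genes act mostly in the mesenchyme, and the Cdx genes, relatives of the Hox genes, carry much of the positional identity of the epithelium.

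The clusters lie on chromosome 6 (HoxA, given here from Hoxa2 to Hoxa13, 52162417 to 52260880), chromosome 11 (HoxB, 96194316 to 96368256), chromosome 15 (HoxC, 102921103 to 103036852) and chromosome 2 (HoxD, 74668310 to 74765142) of the build GRCm38. Levels are given as CPM, counts relative to library size after TMM scaling of all 27 libraries together, and levels of different genes are compared only as CPM per kb of exon. The libraries held 6071103 to 43843615 counts on genes, so that the detection floor of 3 counts corresponded to 0.0657 to 0.523 CPM, and the shallowest library was the TNF-labelled one of m-ICc12 sample M1. Floors and intervals cover counting error only. As in any bulk sample, fewer expressing cells and less RNA per cell cannot be told apart.

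The markers of the 3 cell types were examined first. The organoid libraries expressed 16 of 16 intestinal epithelial markers, whose summed level was 9240 to 10500 CPM, and mesenchymal markers summed to only 13.8 to 41 CPM. The MEF libraries expressed 11 of 14 mesenchymal markers at a sum of 8700 to 11300 CPM (Thy1, Dcn and Lum were below background), against 14.5 to 20.7 CPM for the epithelial list. The m-ICc12 libraries went against their label in part. Krt8 (1140 to 1590 CPM), Krt18 and Krt20, keratins of simple epithelia, were high, but Epcam was at 2.07 to 7.14 CPM, Cdh1 at 0.937 to 6.79 CPM and Cdx2 at 0.0961 to 0.721 CPM, where the organoids had 881 to 1140, 887 to 1120 and 145 to 238 CPM. Kidney tubule markers were above background in 11 of 14 cases in m-ICc12 cells. Pax8, a regulator of kidney tubule development, reached 258 to 339 CPM, Pax2 38.2 to 114 CPM and the kidney cadherin Cdh16 585 to 873 CPM. The line is therefore called here by its name only. The NF-kB target Nfkbia was lower in the TNF-labelled library in 9 of 9 organoid and 3 of 3 m-ICc12 pairs, and the names of the deposited data give the opposite treatment to the sample labels in every pair, so each TNF difference is given by label only.

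The 3 cell types expressed 3 different Hox codes. A gene was taken as above background when at least 50% of the libraries of a cell type held at least 10 counts of it. By this rule organoids expressed 11 members, m-ICc12 cells 30 and MEFs 17. Only Hoxa2, Hoxa3 and Hoxa4, which act in the hindbrain and neck of the embryo, were above background in all 3 cell types. Organoids and m-ICc12 cells shared 8 further members, the run from Hoxb3 to Hoxb9 and Hoxd4, and no member was above background in organoids alone. m-ICc12 cells and MEFs shared 9, among them Hoxa7, Hoxa9, Hoxa10, Hoxd8 and Hoxd10. Another 10 were above background in m-ICc12 cells only (Hoxb2, Hoxc4, Hoxc5, Hoxc6, Hoxc8, Hoxc9, Hoxc10, Hoxc11, Hoxc13 and Hoxd3), and 5 in MEFs only (Hoxa11, Hoxa13, Hoxd11, Hoxd12 and Hoxd13). The remaining 4 members, Hoxb1, Hoxb13, Hoxc12 and Hoxd1, had no count in any of the 27 libraries.

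**Figure D1:**
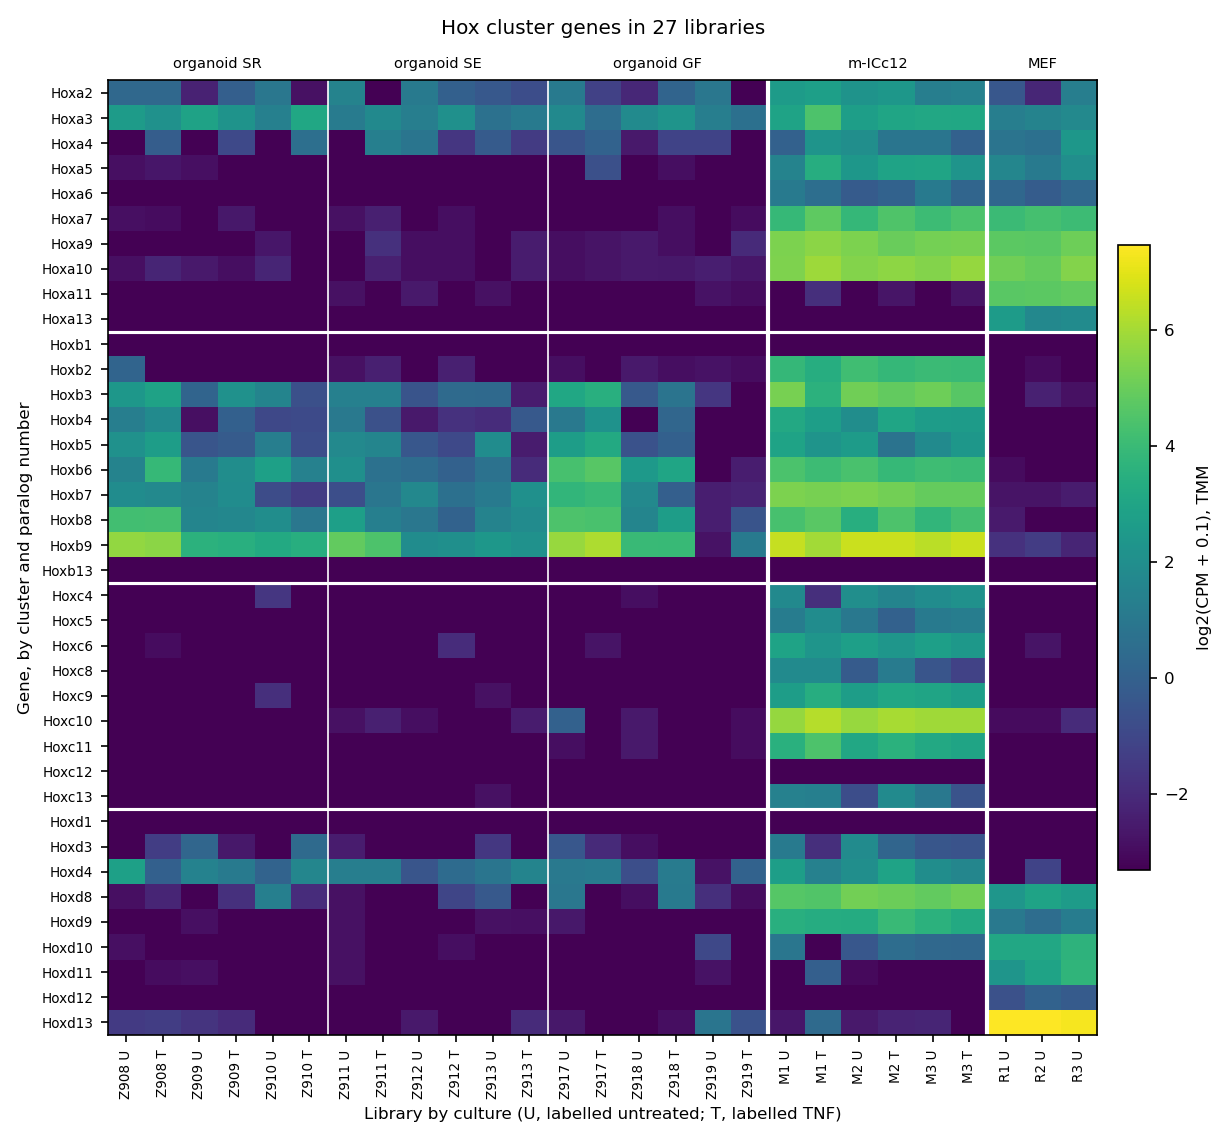
Level of Hox cluster genes (rows, ordered by cluster and paralog number) in each of the 27 libraries (columns, U for labelled untreated and T for labelled TNF), as log2 of TMM CPM plus 0.1; white lines separate clusters, facilities and cell types. Organoids show the stretch Hoxb3 to Hoxb9 and low Hoxa3 and Hoxd4, m-ICc12 cells show all 4 clusters, and MEFs show HoxA and the high-numbered HoxD genes with Hoxd13 at 161 to 177 CPM.

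The clusters contributed very unequally. In organoids the HoxB genes summed to 42.6 ± 46.3 CPM (SD, n = 9 cultures), 83.2% of the mean Hox sum. HoxA followed with 5.58 ± 1.54 CPM, HoxD with 2.89 ± 1.01 and HoxC with 0.118 ± 0.153. HoxB led by this mean but not in every culture. In culture Z919 (GF) it summed to 1.68 CPM, below Hoxa3 alone with 1.91 CPM. In m-ICc12 cells HoxB also led with 216 ± 10 CPM (SD, n = 3), followed by HoxA with 138 ± 12.8, HoxC with 96.8 ± 9.09 and HoxD with 49 ± 7.28. In MEFs HoxD summed to 198 ± 2.05 CPM (SD, n = 3), 60.4% of the total, and HoxA to 130 ± 18.8 CPM, whereas HoxB was at 0.339 ± 0.112 and HoxC at 0.0842 ± 0.0653 CPM. Summed over all 39 members, organoid libraries held 6.19 to 162 CPM, m-ICc12 libraries 469 to 526 and MEF libraries 318 to 348. The organoid range did not overlap the others, and it was the widest by far.

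The sequence before the start of 22 members was given in RefSeq (GRCm38.p6). The other 17 had no entry, Hoxb9 and Hoxc10 among them. The window was the 250 bases before the start. The promoters shown stand for 4 of the patterns of expression, namely Hoxb8 for organoids and m-ICc12 cells, Hoxa2 for all 3 cell types, Hoxa10 for m-ICc12 cells and MEFs, and Hoxd13 for MEFs. Capitals mark matches, on either strand, to TGACAG (bound by Meis and Pknox proteins), TGATTNAT (bound by Pbx and Hox proteins together) or CAATAAA (bound by Cdx proteins).
Hoxb8, chr11:96281655-96281904, plus strand: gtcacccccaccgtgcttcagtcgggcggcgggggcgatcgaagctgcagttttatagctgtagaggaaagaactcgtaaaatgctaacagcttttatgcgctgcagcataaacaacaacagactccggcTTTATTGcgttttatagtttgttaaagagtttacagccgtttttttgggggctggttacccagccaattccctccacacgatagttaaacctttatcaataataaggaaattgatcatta
Hoxa2, chr6:52164832-52165081, minus strand: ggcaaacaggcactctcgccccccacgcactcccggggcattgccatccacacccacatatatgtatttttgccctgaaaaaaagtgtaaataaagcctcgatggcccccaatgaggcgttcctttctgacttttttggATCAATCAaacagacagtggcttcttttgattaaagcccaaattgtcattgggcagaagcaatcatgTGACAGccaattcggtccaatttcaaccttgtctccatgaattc
Hoxa10, chr6:52240855-52241104, minus strand: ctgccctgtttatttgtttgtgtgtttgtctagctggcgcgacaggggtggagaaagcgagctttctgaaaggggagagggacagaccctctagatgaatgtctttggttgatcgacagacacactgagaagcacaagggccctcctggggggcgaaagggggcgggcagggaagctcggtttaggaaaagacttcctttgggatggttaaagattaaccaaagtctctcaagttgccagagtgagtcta
Hoxd13, chr2:74667975-74668224, plus strand: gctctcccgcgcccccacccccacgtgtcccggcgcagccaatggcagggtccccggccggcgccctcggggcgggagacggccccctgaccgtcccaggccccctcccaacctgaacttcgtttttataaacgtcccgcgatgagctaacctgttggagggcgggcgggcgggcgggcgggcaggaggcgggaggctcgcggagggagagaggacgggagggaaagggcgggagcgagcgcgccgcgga

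The Hoxb8 window held 1 match to CAATAAA, which began 120 bases before the start, and Hoxa2 held 1 match to TGATTNAT at 111 bases and 1 to TGACAG at 44 bases. Among the 22 windows, CAATAAA occurred in 1 (4.55%, against 4.42% of 27018 promoters of all genes), TGATTNAT in 1 (4.55% against 2.99%) and TGACAG in 2 (9.09% against 16%). The 3 motifs do not overlap each other in these windows, and the counts are descriptions of letters only. CG dinucleotides were more numerous, with a median of 12 in the Hox windows and 6 over all promoters. The 5 genes above background in MEFs only had between 2 and 35.

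In organoids, the upper end of HoxB was the most expressed. Per kb of exon, Hoxb9 was highest with 8.01 ± 8.49 CPM per kb (SD, n = 9 cultures), followed by Hoxb6 with 2.87 ± 3.56, Hoxb8 with 2.52 ± 2.9 and Hoxb7 with 2.19 ± 2.84, and then by Hoxb5, Hoxb3, Hoxd4, Hoxa3, Hoxa2, Hoxb4 and Hoxa4 between 0.858 and 0.363 CPM per kb. These SDs run over the same 9 cultures, in which the HoxB genes varied together, so they do not settle the order of neighbours. Within each culture Hoxb9 was above Hoxb6 per kb, and the other neighbours were not compared in this way. Hoxb9, which patterns the thorax and lies on chromosome 11 from 96271457 to 96276595, had 0.0443, 11.6 and 69.8 CPM in the lowest, median and highest of the 18 organoid libraries. The spread between cultures that lies behind this range is described further on.

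The HoxA and HoxD members of the organoids were few and low. Hoxa3, which is needed for the thymus and parathyroid, ranged from 1.36 CPM over a median of 3.34 to 8.54 CPM and was counted in 18 of 18 libraries. Hoxd4, a gene of the hindbrain and upper neck, ranged from 0.0443 over 2.03 to 7 CPM. Hoxa2 ranged from 0 over 0.884 to 2.71 CPM and Hoxa4 from 0 over 0.354 to 2.44 CPM, so these were close to the limit of 10 counts. Hoxa4 was no longer above background without culture Z917. Above Hoxa4, HoxA was silent in organoids. Hoxa7, Hoxa9, Hoxa10 and Hoxa11 never exceeded 0.181 CPM, Hoxa6 and Hoxa13 had no count, and Hoxa5 was above the floor in 1 library (0.517 CPM). HoxC was nearly silent, with Hoxc10 at 0.912 CPM in the untreated-labelled library of Z917 and at most 0.0905 CPM in the other 17, and no other HoxC member above 0.231 CPM. Hoxd8 had over 3 counts in 9 of 18 libraries and reached 2.43 CPM in 1 of them, so that it would be the last HoxD gene above background with a limit of 3 counts.

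Some of these genes share exon sequence with a neighbour. Exons of Hoxd4 coincide over 52.3% of their length with those of Hoxd3 or a further transcript on the same strand, and those of Hoxd3 over 62.3%, so reads cannot always be assigned to 1 of the 2. Antisense transcripts cover 52.9% of the exons of Hoxb3, 35% of Hoxa11, 27.3% of Hoxb2 and 25.4% of Hoxa3. Whether the counting used strand is not given in the sources used here, so that reads from a gene and its antisense partner cannot be told apart.

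**Figure D2:**
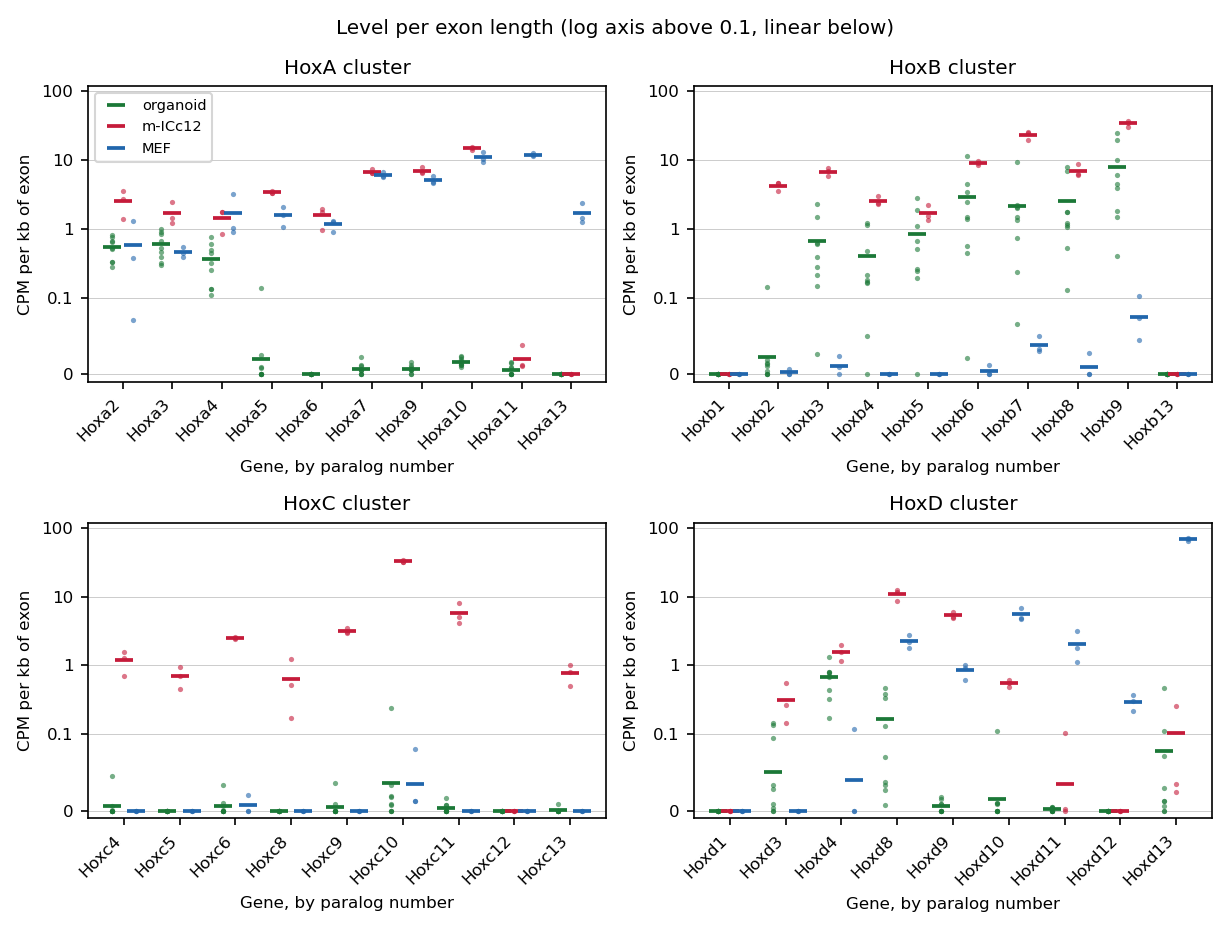
Level of Hox cluster genes as CPM per kb of exon (log axis above 0.1, linear below), by cluster and paralog number; points are cultures (9 organoid, 3 m-ICc12, 3 MEF) and bars their means. Within HoxB, Hoxb9 is highest in organoids (8.01) and m-ICc12 cells (34.3), Hoxc10 stands out in m-ICc12 cells (32.7), and Hoxd13 in MEFs (68.8).

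HoxB levels differed between the organoid cultures. The 2 libraries of Z917 (GF) had summed HoxB levels of 128 and 156 CPM and those of Z908 (SR) 89.1 and 103 CPM, in the order untreated and TNF label. Z911 (SE) followed with 48.1 and 33.9 CPM, Z918 (GF) with 29 and 34.1, Z909 (SR) with 21.4 and 27.9, Z910 (SR) with 26.1 and 17.1, Z913 (SE) with 16.4 and 13.1 and Z912 (SE) with 11.3 and 9.3. Z919 (GF) was at the bottom with 0.488 and 2.87 CPM. The highest and the lowest culture therefore came from littermates of the same facility. In the middle of the order the ranges of Z909 and Z910 overlapped, as did those of Z911 and Z918.

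For Hoxb9, the 2 libraries of a culture had 56.1 and 69.8 CPM in Z917, 51.9 and 48.2 in Z908, 29.1 and 22.1 in Z911, 16 and 15.2 in Z918, 12 and 11.2 in Z909, 9.37 and 10.9 in Z910, 5.12 and 4.31 in Z913, 3.69 and 4.05 in Z912, and 0.0443 and 2.05 in Z919. The ranges spanned by the 2 libraries did not overlap between any of the 9 cultures. Culture Z917 had 60.1 times the level of Z919 and 16.3 times that of Z912, the next lowest. For Hoxb8, which acts in the trunk, the mean was 21.2 CPM in Z917, 18.5 in Z908, 3.17 in the median culture and 0.34 in Z919.

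The other HoxB members followed the same cultures. In 7 of 7 members from Hoxb3 to Hoxb9, Z917 was highest, Z908 second and Z919 lowest by culture mean. Single libraries did not always keep this order. For Hoxb7, Z909 with a mean of 3.25 CPM was close behind Z908. As culture means, Hoxb6 had 22.6 CPM in Z917 and 8.9 in Z908 (2.72 and 15.1 in its 2 libraries), Hoxb7 14.6 and 3.48, Hoxb3 9.74 and 6.26, Hoxb5 7.88 and 5.29, and Hoxb4 3.17 and 2.92. In Z919, Hoxb4 and Hoxb5 had no count and the other members but Hoxb9 were at or below 0.34 CPM. The SD over the 9 cultures was 106% to 129% of the mean for these 7 genes, and the median over all 12104 genes tested was 16.1%. That median covers genes of every level, and counting error raises the percentage for genes with few counts. Hoxa2, Hoxa3, Hoxa4 and Hoxd4, at 36.8% to 64.2%, varied less. Their highest cultures by mean were Z912 for Hoxa2, Z909 for Hoxa3, Z911 for Hoxa4 and Z908 for Hoxd4. These ranks can rest on a single library, as Hoxa4 had 0 and 2.44 CPM in Z911 and Hoxd4 7 and 0.883 CPM in Z908. They set no order of cultures for these genes.

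The differences between cultures were tested with both libraries of a culture as its replicates, in a test chosen after the data were seen (edgeR's quasi-likelihood F-test over the 9 cultures, with the label as a covariate). With a Benjamini-Hochberg adjusted p under 0.05, 12% of all genes tested differed between cultures, and 5 of the 11 members did. These were Hoxb9 (F = 26.3, edgeR adjusted p = 4.3e-10), Hoxb8 (F = 10.8, 1.1e-05), Hoxb6 (F = 9.42, 4.1e-05), Hoxb7 (F = 5.96, 0.0018) and Hoxb5 (F = 4.27, 0.016). Hoxb3 was at an adjusted p of 0.051 and Hoxb4 at 0.13, and Hoxa2, Hoxa3, Hoxa4 and Hoxd4 at 0.74 or above by the same edgeR test. Leaving out Z917 left 3 calls, without Hoxb5 and Hoxb7 (edgeR adjusted p = 0.11 and 0.3), and Hoxb5 was also lost without Z919 (edgeR adjusted p = 0.15).

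**Figure D3:**
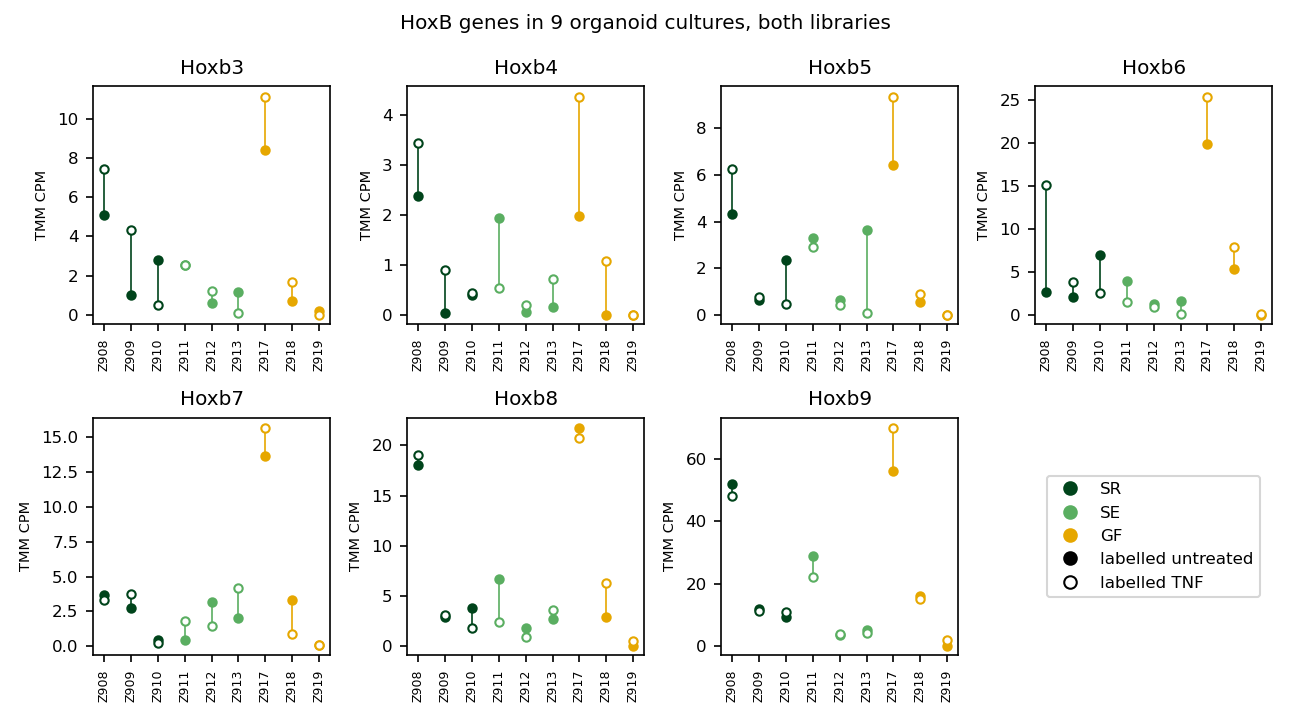
TMM CPM of Hoxb3 to Hoxb9 in the 9 organoid cultures, with 1 filled point for the library labelled untreated and 1 open point for that labelled TNF, joined by a line and coloured by facility. As means of the 2 libraries, Z917 and Z908 are highest in all 7 panels and Z919 is lowest. Single libraries of other cultures can lie above those of Z908 or below those of Z919. For Hoxb9 the ranges of the 9 cultures do not overlap.

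Other markers of position along the gut were set beside the HoxB levels. Of 10 gut position factors tested, 3 differed between cultures, against 12% of all genes tested. Gata4, a factor of the duodenum and jejunum that is absent from the ileum, was at 37.1 CPM in Z917 and at 69.6 to 96.3 CPM in the other 8 cultures (edgeR adjusted p = 0.0016). Slc10a2, the bile acid transporter of the ileum, was highest in Z917 with 46.8 CPM and lowest in Z919 with 7.52 CPM, but Z908, second in HoxB, was second lowest with 8.67 CPM (edgeR adjusted p = 1.1e-05). Hnf4g, the third, ranged from 34.7 CPM in Z911 to 98.1 CPM in Z918 and did not follow HoxB (edgeR adjusted p = 0.001). Cdx2 was even, at 155 to 207 CPM in the 9 cultures.

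Cell type markers were examined in the same way. The epithelial marker sum was between 9630 and 9950 CPM in every culture, but 11 of its 16 genes differed between cultures, against 12% of all genes tested. Lgr5 and Olfm4, markers of intestinal stem cells, were highest in Z919 with 242 and 1280 CPM, against 86.7 to 193 and 345 to 690 CPM in the other 8 cultures (edgeR adjusted p = 8.6e-10 and 1.3e-13). Alpi and Fabp2, genes of absorptive enterocytes, ranged from 9.33 CPM in Z910 to 88.1 in Z918 (edgeR adjusted p = 3.8e-09) and from 103 CPM in Z917 to 359 in Z913 (9.9e-13). The mesenchymal sum was between 16.7 and 37.2 CPM. It was highest in Z919, the culture with the lowest HoxB level, and next in Z908 (30 CPM) and Z917 (29.2 CPM), the cultures with the highest. Z919 also had the highest Hoxd13 levels among organoids, with 1.73 and 0.563 CPM in its 2 libraries and at most 0.285 CPM elsewhere. The part of these genes in the HoxB differences was not tested.

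In m-ICc12 cells, members of all 4 clusters were expressed in the trunk and lumbar range. Hoxb9 was highest per length with 34.3 ± 3.82 CPM per kb (SD, n = 3), and its 6 libraries ranged from 62.4 over a median of 95 to 98.2 CPM. Hoxc10, a gene of the lumbar region and hindlimb on chromosome 15 from 102966796 to 102971893, was next with 32.7 ± 1.27 CPM per kb and ranged from 54.2 over 61.4 to 76 CPM. These 2 did not differ beyond their spread. Then came Hoxb7 with 23.3 ± 3.2 and Hoxa10, a gene of the lumbar vertebrae and the urogenital tract, with 14.8 ± 0.588 CPM per kb and libraries from 41.1 over 46.6 to 59.1 CPM. Hoxd8 led its cluster with 11 ± 2.06 CPM per kb and ranged from 23.2 over 31.3 to 36 CPM.

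In m-ICc12 cells the last gene above background was Hoxa10, Hoxb9, Hoxc13 and Hoxd10 in the 4 clusters. In HoxA the level fell from Hoxa10 to Hoxa11, which had 0 to 0.174 CPM, and Hoxa13 had no count. In HoxB, Hoxb9 was followed by Hoxb13 with no count. In HoxC, expression went on over Hoxc11 (7.83, 10.2 and 22 CPM in the lowest, median and highest library) to Hoxc13, a gene of hair and nails, with 0.482, 2.18 and 3.53 CPM, while Hoxc12 between them had no count. In HoxD, Hoxd10 was the last above background, at 0 to 1.79 CPM with the 0 in the shallow M1 library, and Hoxd13 was at or below 1.22 CPM with that value in the same library. With a limit of 3 counts in place of 10, Hoxd13 would count as above background in these cells.

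MEFs carried a distal code with no HoxB and no HoxC. Hoxd13, which patterns the digits and the genital bud and lies on chromosome 2 from 74668310 to 74671599, had 177, 174 and 161 CPM in the 3 libraries. Its 68.8 ± 3.31 CPM per kb (SD, n = 3) was the highest of any member in any cell type. Hoxa11, a gene of the forearm and uterus, had 26.1, 27 and 29 CPM and was next with 12 ± 0.652 CPM per kb, close to Hoxa10 with 11 ± 2.07. Hoxa13, the partner of Hoxd13 in digits and hindgut, had 5.98, 3.15 and 3.61 CPM. Hoxa13 had no count outside MEFs, and Hoxd13 did not exceed 1.73 CPM there.

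The HoxD genes of MEFs began at Hoxd8 (4.98, 7.53 and 6.02 CPM) and continued without a gap to Hoxd13, while Hoxd1 and Hoxd3 had no count and Hoxd4 was counted in 1 library (0.353 CPM). In HoxA the genes from Hoxa2 to Hoxa13 were above background, with Hoxa3 (0.465 ± 0.0777 CPM per kb) and Hoxa2 (0.588 ± 0.65) lowest per length and within their spread of each other. Of the HoxB genes, Hoxb9 was highest at 0.19, 0.277 and 0.115 CPM, and it would pass as above background without library R1 or without R3, or with a limit of 3 counts.

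Organoids were compared with m-ICc12 cells over cultures, with the counts of both libraries of a culture added (edgeR's quasi-likelihood F-test, 9 against 3 cultures). In this comparison 70.6% of all genes tested passed an adjusted p of 0.05, 36.6% higher and 34% lower in organoids. Of 30 members tested, 27 passed and all 27 were lower in organoids, at a median log2 fold change of -6.68 over the members tested and 0.04 over all genes. With silent genes set at the floor the members' median was -4.34. A member tested only because m-ICc12 cells express it had to be lower in organoids, so the count describes the code of the line and is no test of the list.

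For members above background in both, the differences were smaller. Hoxb5 (log2 fold change -1.09 ± 0.98, SE), Hoxb6 (-1.69 ± 0.88) and Hoxb8 (-1.35 ± 0.77) did not pass (edgeR adjusted p = 0.33, 0.098 and 0.13). For these 3, libraries of Z917 reached the range of m-ICc12 cells, so that the groups overlapped. Libraries of Z908 did so for Hoxb5 and Hoxb8, and those of Z910, Z911 and Z913 for Hoxb5. Members that passed could overlap too, with Hoxb9 at 69.8 CPM in a library of Z917 and 62.4 CPM in the lowest m-ICc12 library. Hoxb9 was lower in organoids by a log2 fold change of -2.13 ± 0.73 (edgeR adjusted p = 0.016), Hoxb7 by -3.42 ± 0.78 (0.0011; -4.20 without Z917) and Hoxb3 by -3.51 ± 0.75 (0.00061; -4.02 to -2.80 over the alternatives run). Hoxa3 was lower by -1.20 ± 0.40 (edgeR adjusted p = 0.015), and by -1.10 without m-ICc12 sample M1, where it lost the call (edgeR adjusted p = 0.059). Hoxa4, Hoxb4, Hoxd3 and Hoxd4 passed with adjusted p values of 0.018 to 0.039 (edgeR) and also lost the call without M1 or M2, Hoxd3 in addition without Z908, Z911, Z913 or Z918.

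Members of the high-numbered range were far apart. Hoxa10 was at 0 to 0.116 CPM in the 18 organoid libraries and at 41.1 CPM or above in m-ICc12 cells, a log2 fold change of -9.75 ± 0.24 (edgeR adjusted p = 5e-14). Hoxc10 was at -9.55 ± 0.73 (edgeR adjusted p = 1e-08), at -11.49 without Z917 and at -6.19 in DESeq2 (adjusted p = 0.011). Hoxc5 and Hoxc8, with no count in organoids, were at least 18.1-fold and 15.2-fold lower there, and Hoxa6 at least 11.6-fold, against a floor of 3 counts per library. For Hoxc13, 1 organoid count gave a ratio of 939 with a 95% Poisson interval of 169 to 37100.

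Against MEFs, organoids differed in both directions (edgeR, 9 against 3 cultures). Here 74.2% of all genes passed, 39.2% higher and 34.9% lower in organoids. Of 25 members tested, 23 passed, 8 of them higher in organoids and 15 lower. The 8 were Hoxb3 to Hoxb9 and Hoxd4. They were above background in organoids and not in MEFs, so they were tested only through organoids and had to be higher there. Hoxb9 was higher by a log2 fold change of 6.71 ± 1.33 (edgeR adjusted p = 3e-04) and Hoxb7 by 5.85 ± 1.46 (0.002), which became 5.06 without Z917. Hoxb4 and Hoxb5 had no count in MEFs and were at least 11.9-fold and 27.4-fold higher in organoids. Hoxb6, with 1 count in MEFs, gave a ratio of 609 (95% Poisson interval 109 to 24000). Even the lowest organoid culture, Z919, had a Hoxb9 level of 1.05 CPM, above the highest MEF library, although its untreated-labelled library lay below all MEFs.

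The 15 lower members lay in HoxA and in HoxD from Hoxd8 to Hoxd13. Of these, only Hoxa4 was above background in both cell types. A member tested only because MEFs express it had to be lower in organoids, so the counts describe the 2 codes. Hoxd13 was lower in organoids by a log2 fold change of -9.74 ± 0.60 (edgeR adjusted p = 6.3e-10), by -10.90 without Z919 and by -6.18 in DESeq2 (adjusted p = 0.0068). Hoxa11 was at -10.82 ± 0.53 (edgeR adjusted p = 3.9e-11; -11.71 to -10.06 over the alternatives run), and Hoxa13, with no count in 18 organoid libraries, was at least 35.6-fold lower. Hoxa4 passed (edgeR adjusted p = 0.0049) but not without MEF library R3. Hoxa2 at -0.01 ± 0.76 and Hoxa3 at 0.43 ± 0.47 did not pass (edgeR adjusted p = 0.99 and 0.42), and their ranges in the 2 cell types overlapped.

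Between m-ICc12 cells and MEFs most of HoxA did not pass the test, and the rest of the clusters did (edgeR, 3 against 3 samples). Of all genes tested, 62.1% passed, 31.1% higher and 31% lower in m-ICc12 cells. Of 35 members tested, 29 passed, 23 higher and 6 lower. The 6 that did not pass were all in HoxA, Hoxa4, Hoxa7 and Hoxa10 among them. Hoxa7, a trunk gene, had 14.5 to 27.4 CPM in m-ICc12 cells and 16.5, 19.5 and 16.9 in MEFs, with a log2 fold change of 0.00 ± 0.19. Hoxa9 and Hoxa2 passed at adjusted p values of 0.034 and 0.048 (edgeR) and lost the call when M1, M3, R1 or R2 was left out, Hoxa2 also without M2.

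The 6 lower in m-ICc12 cells were Hoxa11, Hoxa13, Hoxd10, Hoxd11, Hoxd12 and Hoxd13, the distal end of the 2 clusters that MEFs express. All but Hoxd10 were tested only through MEFs and had to be lower in m-ICc12 cells. Hoxd13 differed by a log2 fold change of -10.51 ± 0.25 (edgeR adjusted p = 1e-11; -11.01 to -9.85 over the alternatives run) and Hoxd10 by -3.05 ± 0.41 (3.8e-05). Hoxa13 and Hoxd12, with no count in m-ICc12 cells, were at least 26.2-fold and 4.66-fold lower. Within HoxD the direction turned between Hoxd9, which was higher in m-ICc12 cells by 2.67 ± 0.36 (edgeR adjusted p = 3.7e-05), and Hoxd10. The higher members included all HoxB and HoxC genes tested. None of these was above background in MEFs, so they were tested only through m-ICc12 cells and had to be higher there. Hoxb9 was higher by 8.79 ± 0.24 (edgeR adjusted p = 2.5e-11), and Hoxc11 and Hoxc9, without a count in MEFs, by at least 135-fold and 88.3-fold.

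No member differed between the labels untreated and TNF at the threshold. The fits did not use the pairing of libraries. Differences between cultures therefore entered the error, and with it the SEs and unadjusted p-values. With the pairing as a block the calls were also 0. In organoids 1.39% of all genes differed by label and 0 of 11 members (edgeR, 9 against 9 libraries; 0 members at an unadjusted p under 0.05, against 8.86% of all genes, and 0 with DESeq2). Hoxb9 had a log2 fold change of 0.03 ± 0.65 and was higher in the TNF-labelled library in 4 of 9 pairs. In m-ICc12 cells 0.11% of all genes and 0 of 30 members differed (edgeR, 3 against 3 libraries; 0 with DESeq2), and 2 members were at an unadjusted p under 0.05, against 4.69% of all genes. Hoxa7 had 14.9, 14.5 and 16.6 CPM under the untreated label and 27.4, 22.5 and 21.5 under the TNF label, without overlap (log2 fold change 0.64 ± 0.26, edgeR unadjusted p = 0.026, adjusted p = 1). Hoxb3 had 37.9, 35.2 and 34.1 CPM against 12.2, 29.4 and 25.3, also without overlap and lowest in the shallow M1 library (-0.65 ± 0.28, edgeR unadjusted p = 0.034, adjusted p = 1).

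The facility of the donor gave no call either. Between GF and SPF organoids 0.054% of all genes differed and 0 of 13 members (edgeR, 3 against 6 cultures; 0 at an unadjusted p under 0.05, against 4.1% of all genes, and 0 with DESeq2). Hoxb9 differed by a log2 fold change of 0.55 ± 0.86, and the GF cultures included both the highest and the lowest. Between SR and SE organoids 0.00775% of all genes and 0 of 14 members differed (edgeR, 3 against 3 cultures; 0 with DESeq2). Hoxb6 (log2 fold change 1.71 ± 0.67, higher in SR) and Hoxa3 (1.16 ± 0.47) were at unadjusted p values of 0.025 and 0.03 in edgeR, with an adjusted p of 1, and 4.03% of all genes had an unadjusted p under 0.05.

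Genes that work with or on the Hox clusters were described from lists. The TALE homeodomain proteins of the Pbx, Meis and Pknox families bind DNA together with Hox proteins. Of 8 tested between organoids and m-ICc12 cells, 4 were lower in organoids and 0 higher (edgeR, median log2 fold change -0.75). Meis1 and Meis2, below background in organoids, were tested only through the other cell type. They had to be lower in organoids, here and against MEFs. Meis1 had 2 counts in all 18 organoid libraries together and 7.96 to 19.9 CPM in m-ICc12 cells and 0.882 to 3.5 CPM in MEFs. Meis2 was at 0 to 1.67 CPM in organoids, 21.8 to 35.7 in m-ICc12 cells and 8.02 to 10.8 in MEFs, and Meis3 at 0.576 to 19.4, 4.7 to 14.4 and 2.07 to 3.53 CPM. Against MEFs, 6 of 9 TALE genes passed, 4 of them lower in organoids, Pknox2 (0 to 1.6 against 10.9 to 13.4 CPM) among them. Pknox2 was above background in MEFs only and had to be lower in organoids as well. Between m-ICc12 cells and MEFs 8 of 9 passed, with 6 higher in m-ICc12 cells. The shares of all genes tested that passed were 70.6%, 74.2% and 62.1% in these 3 comparisons.

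The Cdx genes divided the cell types in the opposite way. Cdx1 was at 360 to 574 CPM in organoids, 0.384 to 2.96 in m-ICc12 cells and 0.378 to 0.69 in MEFs. Cdx2, the master factor of intestinal identity, was higher in organoids than in m-ICc12 cells by a log2 fold change of 9.20 ± 0.18 (edgeR adjusted p = 9.1e-15) and than in MEFs by 9.08 ± 0.16 (6.8e-16). Between m-ICc12 cells and MEFs neither gene passed (Cdx2 -0.09 ± 0.99, edgeR adjusted p = 0.94). Cdx4 had no count in any library.

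Other factors of gut position were higher in organoids in 10 of 10 cases tested, of 15 counted, in both comparisons (edgeR, median log2 fold change 8.49 against m-ICc12 cells and 6.96 against MEFs). Gata5, Onecut2, Hnf4g, Slc10a2 and Fabp6 were above background in organoids only, so they were tested only through organoids and had to be higher there, and the count supports nothing further. Gata4, Gata6 and Tbx3 were also below background in m-ICc12 cells, so their calls against that line add no support either. Gata4 was at 26.1 to 105 CPM in organoids, 0 to 0.348 in m-ICc12 cells and 1.57 to 2.07 in MEFs, and Gata6 at 69.4 to 109, 0 to 0.523 and 11 to 12.5 CPM. Tbx3 was at 24.2 to 52.3 CPM in organoids and at most 2.14 elsewhere.

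Of 24 listed factors of limb and trunk position, 15 were tested between organoids and MEFs, and 14 passed, 12 of them lower in organoids (edgeR, median log2 fold change -8.15). Over all genes tested, 74.2% passed. A gene tested only because MEFs express it had to be lower in organoids. Hand2, a limb and heart factor, was at 3.3 to 4.56 CPM in MEFs with no count elsewhere. m-ICc12 cells held Emx2, a factor of the urogenital ridge, at 34.1 to 45.6 CPM, where organoids had at most 0.112 CPM.

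**Figure D4:**
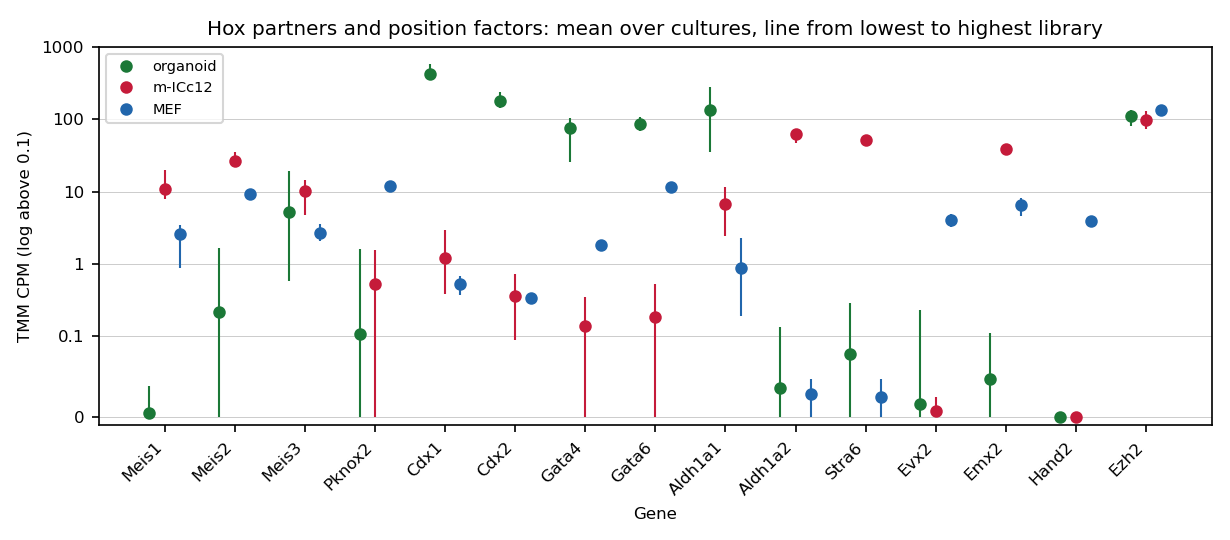
TMM CPM of Hox partners, Cdx genes and other position factors in the 3 cell types; points are means over cultures (9, 3 and 3) and lines run from the lowest to the highest library, on an axis that is logarithmic above 0.1 and linear below. Cdx1, Cdx2 and Gata4 are high in organoids, Meis1 and Meis2 in m-ICc12 cells and MEFs, and Ezh2 is at a like level in all 3.

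Retinoic acid induces Hox genes from the low-numbered end. Of its pathway genes, 8 of 11 differed between organoids and m-ICc12 cells, 3 higher and 5 lower in organoids (edgeR), against 70.6% of all genes tested. Aldh1a2 and Stra6, above background in m-ICc12 cells only, had to be lower in organoids. Aldh1a2, an enzyme that makes retinoic acid, was at 47.7 to 72.1 CPM in m-ICc12 cells and at most 0.133 CPM in the other cell types, and Stra6, a receptor for retinol uptake, at 46.7 to 60.2 and at most 0.289 CPM. Organoids expressed another such enzyme, Aldh1a1, at 35.9 to 280 CPM, which also differed between cultures (edgeR adjusted p = 2e-16). Crabp1, a binding protein for retinoic acid, was at 3.38 to 3.8 CPM in MEFs with no count elsewhere, and Crabp2 at 13.4 to 16 and at most 0.257 CPM.

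Regulators of Hox chromatin were called in both directions. Polycomb proteins keep Hox genes silent, and 26 of 26 listed subunits were tested in every cell type comparison. Between organoids and m-ICc12 cells 17 passed, 8 higher and 9 lower in organoids (edgeR, median log2 fold change 0.09). Between organoids and MEFs 18 passed, 7 higher and 11 lower (median -0.23), and between m-ICc12 cells and MEFs 18 passed, 6 higher and 12 lower (median -0.27). Ezh2, the enzyme that methylates H3K27, was at 81.1 to 135 CPM in organoids, 74.2 to 129 in m-ICc12 cells and 127 to 143 in MEFs. Phf19, an accessory subunit, was at 0.521 to 13.5, 0 to 0.938 and 20.4 to 26.3 CPM. Of 17 Trithorax and H3K27 demethylase genes, which act against Polycomb, 9 passed between organoids and m-ICc12 cells (5 higher, 4 lower), 13 between organoids and MEFs (6 and 7) and 9 between m-ICc12 cells and MEFs (4 and 5). These counts stand beside the same shares of all genes and were not tested against them. Psip1 was the furthest apart of them between organoids and MEFs, at 41.7 to 84.8 and 231 to 244 CPM.

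Genes beside the clusters were described last. Of 17 tested between organoids and m-ICc12 cells, 12 passed, 5 higher and 7 lower in organoids (edgeR, median log2 fold change -0.22), with 16 of 19 between organoids and MEFs (6 higher, 10 lower) and 11 of 19 between m-ICc12 cells and MEFs (5 higher, 6 lower). The shares of all genes tested that passed were 70.6%, 74.2% and 62.1%. Whether the list departs from them was not tested. Evx2, the homeobox gene next to Hoxd13, was at 3.3 to 4.95 CPM in MEFs and at most 0.229 CPM in the other cell types. Evx1, next to Hoxa13, had no count in any library.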

How the data were processed

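The deposited values are raw read counts per gene, 1 column a library. The authors trimmed adapters from single-end poly-A reads, aligned them to GRCm38 with STAR and counted reads per gene. STAR 2.5.4b, Trimmomatic, bcl2fastq 2.19, featureCounts and edgeR are named in the submitters' processing notes. Use of strand and treatment of multi-mapping reads are not given in the sources used here.

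Counts were scaled by TMM in edgeR 4.0.16 (R 4.3.3). Genes reaching 10 counts in 50% or more of a group's samples entered edgeR's quasi-likelihood F-test, and p-values received a Benjamini-Hochberg adjustment over all genes tested and a threshold of 0.05. For cell types and facilities the counts of both libraries of a culture were added. Standard errors are the absolute log2 fold change divided by the square root of F. Of 22524 genes, 22214 matched GENCODE vM21. No 2 files were identical. By the sample labels, the numbers pair the libraries labelled untreated and TNF of each organoid culture. The correlation of deviations within these pairs was 0.0821 to 0.311, with a mean of 0.171. Its lowest value lay under the minimum of 0.1 set for a pair, so it does not show the pairing for every culture. In m-ICc12 cells this correlation was -0.00664 to 0.0925, which does not show that the numbers pair the libraries. Adding m-ICc12 libraries by number, and counting their pairs, therefore rests on the sample labels only. DESeq2 1.42.0, other scalings and filters, and leaving out each culture were alternatives. The fits were tested on simulated data.

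Members and gene lists were chosen with earlier results of these data known. All members enter the counts, and values of a few genes are not reported here. Values were given for members highest per kb or highest-numbered in a cluster, and of other lists for up to 4 called genes of largest change and a few preset ones. The genes called between cultures were named after their values were seen.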

Additional observations from a re-analysis of the deposited data

Results flagged for a closer look

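Of 16 values tested over the 9 organoid cultures, 3 had a culture whose gap to its nearest neighbour was a larger share of the range than Dixon's 95% limit for 9 samples. Chance alone flags about 1 in 20 groups, and these values share cultures. Hoxb6 was at 22.6 CPM in Z917 and at 8.9 CPM in the next culture (gap 0.608 of the range). Hoxb7 was at 14.6 CPM in Z917 and at 3.48 CPM in the next (gap 0.767 of the range). The summed HoxC level was 0.495 CPM in Z917 and 0.202 CPM in the next (gap 0.591 of the range), and it rests mostly on Hoxc10 in 1 library.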

How the results depend on the processing

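No called member reversed its direction under any alternative run. Calls numbered 21 to 29 between organoids and m-ICc12 cells (27 as reported, 23 to 29 with 1 culture left out), 21 to 24 between organoids and MEFs (23, and 22 to 24) and 27 to 30 between m-ICc12 cells and MEFs (29, and 27 to 30). Of the called members, 20 of 27, 22 of 23 and 27 of 29 kept the call in every setting that gave a value, and with 1 culture left out the fold change of 11, 10 and 11 moved by over 1.5 times. With the replicate number as a block, Hoxa9 lost its call between m-ICc12 cells and MEFs (edgeR adjusted p = 0.062), where the numbers did not pair the samples (correlation -0.0679 to 0.0254, and 0 of 3 samples closest to their own number). The block left the 0 calls of both TNF label comparisons at 0. With the study's thresholds, 2 members passed for the TNF label in m-ICc12 cells and 2 between SR and SE. Calls between organoid cultures ranged from 3 to 6 with 1 culture left out, with 3 without Z917, and DESeq2 gave 7. With 3 counts as the limit of background, the highest number above background became 8 in HoxD of organoids, 13 in HoxD of m-ICc12 cells and 9 in HoxB of MEFs. With 1 CPM, 7 members were above background in organoids and HoxA ended at 3. With 1 culture left out, HoxA of organoids ended at 3 to 4 and HoxB of MEFs at 0 to 9. The cause of these shifts was not tested. Levels near the floor are limited by depth.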
